A study of Mus musculus with 4 samples.

Results

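The genes described here are 10 regulators of the actin cytoskeleton: Ppm1f, Fhod1, Cfl1, Cfl2, Diaph1, Limk1, Rhoa, Rhob, Rock1 and Ptpn12. They were taken by name from the platform annotation with every probe they had on the array. Of the 10 genes, 9 had at least 1 probe and together held 16 of the 46632 probes, while Diaph1, which encodes a formin that acts downstream of Rhoa, was not analysed here because no probe carried its name. RNA came from immortalized mouse fibroblasts, connective tissue cells adapted to grow indefinitely in culture, and was hybridised to Illumina bead arrays, with 1 library in each of 4 groups. The cells received miR-200c, miR-141, a control miRNA or, per the description of the last library, only the transfectant. The transfection field of that last library says none. The description of the miR-200c library says miR-200, while its title and transfection field say miR-200c. Transfection lasted 48 h in every group, and every culture was given hydrogen peroxide at 400 µM for the 2 h before lysis, so the peroxide itself was not compared. The labels give neither the origin of the fibroblast line nor the arm of each miRNA that was transfected. Each group being a single library, no difference below has a replicate check and none was tested.

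Actin filaments turn over continuously: formins lengthen them, cofilins sever them, and monomers return to the pool. Small GTPases switch on formins and the ROCK kinases. ROCK kinases activate LIM kinases, which switch cofilin off by phosphorylation, and phosphatases set the other side of these balances. miR-200c and miR-141 belong to the miR-200 family, which is abundant in epithelial cells and low in fibroblasts. In human breast cancer cells PPM1F and FHOD1 have been described as targets of miR-200c.

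The mature 3p sequences of both miRNAs are shown because they differ at few bases, 1 of them in the seed, the stretch that pairs with target transcripts. They were taken from RefSeq on GRCm38.p6 and lie on the minus strand, miR-200c-3p at chr6:124718324-124718346 and miR-141-3p at chr6:124717917-124717938. Capitals mark the seed, bases 2 to 8 counted from 1 at the 5′ end.
mmu-miR-200c-3p: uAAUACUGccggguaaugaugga
mmu-miR-141-3p: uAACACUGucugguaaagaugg
Written with the miR-200c base first, the seeds differed by U4C alone, and C9U, G11U and U17A lay outside the seed. The 2 miRNAs therefore belong to different seed groups.

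The mean raw signal was 190 with miR-200c, 198 with miR-141, 151 with control miRNA and 246 with transfectant only, so raw signals cannot be set against each other between libraries without scaling. Between 6989 and 7152 of 17711 genes were detected per library, which means a detection p-value under 0.01, and 7734 genes were detected in at least 1. Of 8 fibroblast markers, Col1a1, Vim, Fn1 and S100a4 were detected in all 4 libraries and Pdgfrb in both controls only, while Col1a2, Col3a1 and Thy1 were below detection throughout. The normalized signals of the 5 detected fibroblast markers were summed on the linear scale. This sum was 12018 with miR-200c and 14807 with miR-141, against 17038 with control miRNA and 17094 with transfectant only. Most of each sum came from Vim, the brightest of them, at a normalized log2 signal of 13.18 with miR-200c and 13.50 with control miRNA. S100a4, a calcium-binding protein gene, had a normalized log2 signal of 7.99 with miR-200c and 8.42 with miR-141, against 9.35 with control miRNA and 9.69 with transfectant only. The collagen gene Col1a1 was at 10.90 with miR-200c and 11.46 with miR-141, against 11.99 with control miRNA and 11.59 with transfectant only. By the rule for calls given below, Col1a1, S100a4 and Pdgfrb were lower with miR-200c, and S100a4 and Pdgfrb with miR-141. Pdgfrb was below detection with both miRNAs, and Vim and Fn1 were called with neither. Of 8 epithelial markers 4 were detected with each miRNA and 1 in each control. The normalized signals of the 4 that were detected, summed on the linear scale, came to 850 with miR-200c and 315 with miR-141, against 150.1 with control miRNA and 127 with transfectant only. Krt8, Krt7 and Cldn4 were called higher with both miRNAs, and Krt19 with miR-200c only. In both controls Krt8, Krt7 and Cldn4 were below detection, so the control sums include values near background. Cdh1, Epcam, Krt18 and Esrp1 of that list were below detection in all 4 libraries. Of 4 skeletal muscle markers 0 were detected, and of the endothelial and leukocyte lists only Kdr and Cd14 were detected. Cd14 was called higher with both miRNAs, and Kdr with neither. The log2 differences of Cd14 from control miRNA and transfectant only were 0.79 and 1.15 with miR-200c, and 0.59 and 0.94 with miR-141. The part of these marker differences in the results below was not tested.

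Differences are given on the log2 scale after background correction and quantile normalization, and a positive value means higher in the group named first. A call with a miRNA needed a gene to be detected in that library or in both controls, and to lie at least 1.5-fold to the same side of control miRNA and of transfectant only. In comparing 2 libraries with each other, the same size was used for genes detected in at least 1 of them. In bulk RNA, less transcript per cell and fewer cells that express it cannot be told apart.

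Ppm1f and Fhod1 were the members that stood lowest with miR-200c, and neither differed by 1.5-fold with miR-141. Cfl2 and Ptpn12 were also called lower with miR-200c, from signals close to background, and Rhob was lower with both miRNAs. Cfl1, Limk1 and Rock1 passed with neither, and Rhoa gave no signal. In all, 5 of the 8 members considered were called lower with miR-200c and 0 higher, where 4.55% of 7202 genes were lower and 4.07% higher (8.62% in either direction). With miR-141, 1 of 8 was lower and 0 higher, where 3.14% of 7188 genes were lower and 2.37% higher (5.51% in either direction). Of the 5 calls with miR-200c, those of Cfl2 and Ptpn12 were considered through both controls alone, since neither was detected with miR-200c. The median difference of the 8 detected members with miR-200c was -0.65 against control miRNA and -0.96 against transfectant only, and over all 7734 detected genes it was -0.0049 and 0.010. With miR-141 the members' medians were -0.21 and -0.16, and those of all detected genes 0.0099 and 0.022. The members were chosen with such results known, so these counts and medians describe them and support nothing further.

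The promoter windows of the 3 members detected in all 4 libraries and called with a miRNA are printed from RefSeq on GRCm38.p6, each from 250 bases before to 50 after the start. Windows were found for 7 members. Searched on both strands were CACCTG (read CAGGTG on the other strand), the core bound by Zeb and Snail repressors, and CCAAT (read ATTGG on the other strand), an element known from the Rhob promoter. Capitals mark any match, and the motifs do not overlap here. Ppm1f lies at chr16:16896219-16896518 on the plus strand, Fhod1 at chr8:105347921-105348220 and Rhob at chr12:8499960-8500259, both on the minus strand.
Ppm1f: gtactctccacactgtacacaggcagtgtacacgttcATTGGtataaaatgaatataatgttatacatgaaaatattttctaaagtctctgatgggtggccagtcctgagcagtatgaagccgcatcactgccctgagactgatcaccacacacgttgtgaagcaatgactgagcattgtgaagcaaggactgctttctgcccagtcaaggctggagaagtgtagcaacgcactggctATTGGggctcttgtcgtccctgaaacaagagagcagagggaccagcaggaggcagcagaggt
Fhod1: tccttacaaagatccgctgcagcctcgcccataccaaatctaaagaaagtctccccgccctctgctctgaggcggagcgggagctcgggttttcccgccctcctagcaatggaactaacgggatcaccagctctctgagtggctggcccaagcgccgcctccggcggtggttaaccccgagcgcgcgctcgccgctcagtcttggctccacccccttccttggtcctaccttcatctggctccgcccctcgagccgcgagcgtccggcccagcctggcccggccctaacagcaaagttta
Rhob: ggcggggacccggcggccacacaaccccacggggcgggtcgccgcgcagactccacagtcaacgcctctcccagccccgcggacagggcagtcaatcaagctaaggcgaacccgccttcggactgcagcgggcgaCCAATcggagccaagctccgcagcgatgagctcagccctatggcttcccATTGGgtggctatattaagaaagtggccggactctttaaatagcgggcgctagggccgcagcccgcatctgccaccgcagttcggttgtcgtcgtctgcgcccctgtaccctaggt
The CCAAT motif was found 2 times in the Ppm1f window, 2 times in that of Rhob and 0 times in that of Fhod1, and it is present in 37.4% of the 32851 windows in the table. CACCTG was found in none of the 3, and it is present in 20.2% of all windows. Among member windows not printed, 1 of Limk1 and 1 of Rhoa held CACCTG, and those of Cfl1, Cfl2 and Limk1 held CCAAT. Matches and their absence concern the letters of these windows alone.

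**Figure D1:**
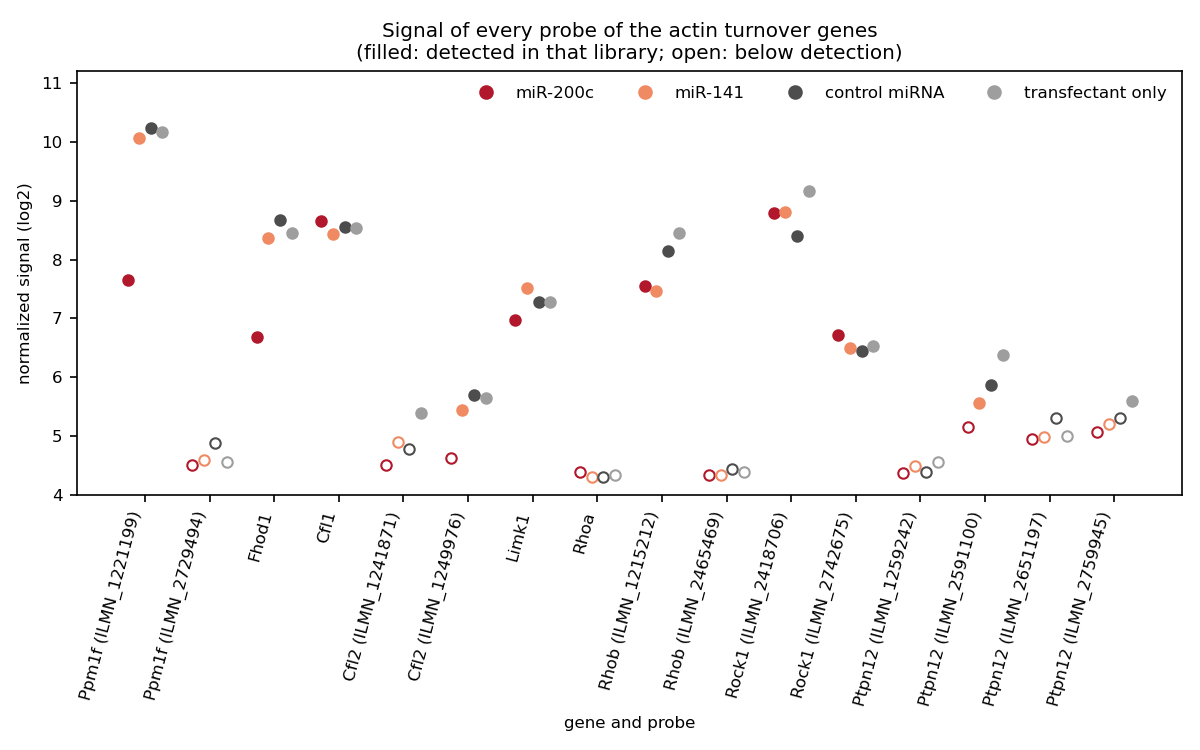
Normalized log2 signal of each of the 16 probes of the 9 genes in the 4 libraries, with filled points where the probe was detected and open points where it was not. The miR-200c points of Ppm1f (7.66) and Fhod1 (6.68) lie apart from the other 3 libraries, while 5 probes were below detection throughout.

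Ppm1f encodes a phosphatase that acts on calmodulin-dependent kinases and on PAK kinases. Its probe ILMN_1221199 had a raw signal of 224 with miR-200c and 1100 with miR-141, against 821 with control miRNA and 1604 with transfectant only. The miR-200c library was low and the other 3 were high, although control miRNA had the dimmest array overall. After normalization the log2 signals were 7.66 and 10.07 with miR-200c and miR-141, against 10.23 with control miRNA and 10.18 with transfectant only. With miR-200c, Ppm1f was 5.94-fold lower than with control miRNA and 5.71-fold lower than with transfectant only. By the smaller of both differences, -2.51, it was the third lowest of 7202 genes. With miR-141 the differences were -0.16 and -0.10, and the controls differed from each other by 0.055. Genes detected in all 4 libraries were split by brightness into 3 equal classes, and in the brightest, where Ppm1f lies, 95% differed by less than 0.50 between the controls. The other Ppm1f probe, ILMN_2729494, was below detection in all 4 libraries, at raw signals of 43.3 with miR-200c, 48.8 with miR-141, 50.2 with control miRNA and 51.3 with transfectant only, so a single probe carries the result.

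Fhod1 encodes a formin of stress fibres that ROCK kinase activates. Its only probe had raw signals of 126 with miR-200c and 349 with miR-141, against 294 with control miRNA and 515 with transfectant only. As for Ppm1f, the miR-200c library alone was low. Normalized, the signals were 6.68 and 8.37, against 8.66 with control miRNA and 8.45 with transfectant only. With miR-200c, Fhod1 was 3.94-fold lower than with control miRNA and 3.41-fold lower than with transfectant only, and it ranked at place 18 from the lowest of 7202 genes. With miR-141 it was at -0.30 and -0.08. The controls differed by 0.21 for this gene, and in the middle class of brightness, where it lies, 95% of genes differed by less than 0.59 between the controls.

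**Figure D2:**
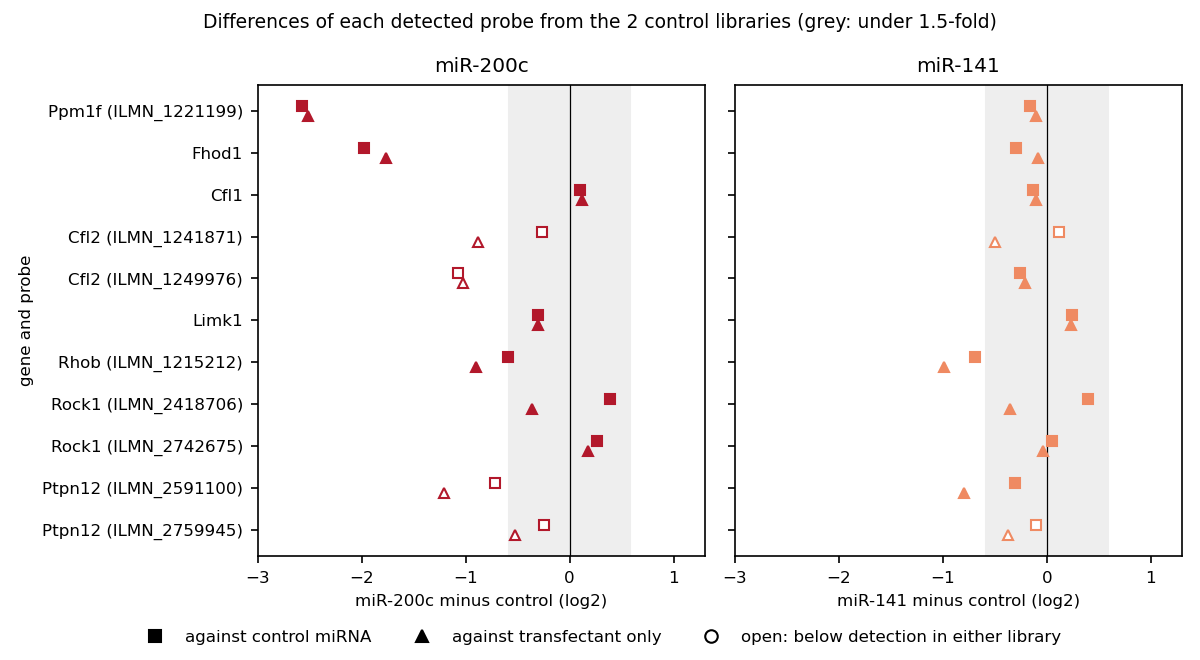
Log2 difference of each probe detected in at least 1 library, for miR-200c (left) and miR-141 (right), against control miRNA (squares) and transfectant only (triangles); open symbols mark a probe below detection in either library of the pair, and the grey band spans 1.5-fold. Both symbols of Ppm1f and Fhod1 lie left of -1.7 with miR-200c and inside the band with miR-141.

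The cofilins are the filament-severing proteins of the set. Cfl1 encodes the non-muscle cofilin, and its probe had raw signals of 417 with miR-200c and 363 with miR-141, against 274 with control miRNA and 544 with transfectant only. The normalized values lay close together, at 8.66 with miR-200c and 8.43 with miR-141, against 8.56 with control miRNA and 8.53 with transfectant only. Cfl1 was at 0.10 and 0.12 with miR-200c and at -0.13 and -0.11 with miR-141, against control miRNA and transfectant only in that order.

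Cfl2 encodes the cofilin that predominates in muscle. Its brighter probe, ILMN_1249976, had raw signals of 46.9 with miR-200c and 70.4 with miR-141, against 65.1 with control miRNA and 94.1 with transfectant only. It was detected in every library but that with miR-200c, where the detection p-value was 0.124. The fitted differences were -1.07 and -1.03, but since the miR-200c value is only a bound, Cfl2 was at least 1.26-fold lower than with control miRNA and at least 1.22-fold lower than with transfectant only. With miR-141 the same probe was at -0.26 and -0.21. The second probe, ILMN_1241871, had raw signals of 43.1 and 56.7, against 48.4 with control miRNA and 81.9 with transfectant only. It was detected with transfectant only alone, so it gives no fold against control miRNA and at least 1.02-fold against transfectant only. With undetected values at their bound Cfl2 did not pass the rule.

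Limk1 and the kinase gene Rock1 act upstream of cofilin. Limk1, whose product phosphorylates cofilin, had raw signals of 149 with miR-200c and 206 with miR-141, against 130 with control miRNA and 242 with transfectant only. Its differences from control miRNA and transfectant only were both -0.30 with miR-200c and both 0.24 with miR-141, so the miRNA libraries lay on opposite sides of the controls, which differed from each other by -0.0017. None of these reached 1.5-fold, nor did the direct difference of miR-200c minus miR-141, at -0.54.

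Rock1 was measured by a pair of probes in all 4 libraries. The brighter, ILMN_2418706, had raw signals of 458 with miR-200c and 472 with miR-141, against 251 with control miRNA and 812 with transfectant only. Both miRNA libraries lay between the controls: miR-200c was at 0.39 and -0.37, and miR-141 at 0.40 and -0.36, against control miRNA and transfectant only. The dimmer probe, ILMN_2742675, had raw signals of 128 and 115, against 86.9 with control miRNA and 155 with transfectant only, and its differences were 0.27 and 0.18 with miR-200c and 0.05 and -0.04 with miR-141. The probes disagreed on the controls, where control miRNA was at -0.76 from transfectant only with the brighter probe and at -0.08 with the dimmer one. No direction with either miRNA can be read for Rock1.

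Rhob, whose small GTPase is induced quickly by stress and growth factors, was the member that stood lower with both miRNAs. Its probe ILMN_1215212 had raw signals of 210 with miR-200c and 199 with miR-141, against 215 with control miRNA and 516 with transfectant only. Raw signals therefore set transfectant only apart from the other 3, and the difference from control miRNA appeared after scaling, since that array was the dimmest. Normalized signals were 7.56 and 7.46, against 8.15 with control miRNA and 8.46 with transfectant only. With miR-200c, Rhob was 1.51-fold lower than with control miRNA and 1.86-fold lower than with transfectant only, and 1.61-fold and 1.99-fold lower with miR-141. The controls themselves differed by -0.30. In the middle class of brightness, which holds Rhob, 95% of genes differed by less than 0.59 between the controls. The difference from control miRNA was -0.60 with miR-200c and -0.69 with miR-141. Without background correction the smaller differences were -0.50 with miR-200c and -0.58 with miR-141, under the 1.5-fold size. The other probe, ILMN_2465469, was below detection in all 4 libraries.

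Rhoa, a well known switch of ROCK kinases and formins, was represented by 1 probe. Its raw signals of 37.7 with miR-200c and 35.2 with miR-141, against 34.2 with control miRNA and 40.4 with transfectant only, were all below detection, with p-values of 0.603 or more. Rhoa therefore has no level and no difference here.

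Ptpn12 encodes the phosphatase PTP-PEST, which acts on focal adhesion proteins such as the Cas docking protein Bcar1. It had 4 probes, of which ILMN_2591100 was the brightest, with raw signals of 59.8 with miR-200c and 74.2 with miR-141, against 68.8 with control miRNA and 140.9 with transfectant only. Transfectant only was high and the miR-200c library was below detection, at a p-value of 0.020. The fitted differences with miR-200c were -0.71 and -1.21, and as bounds Ptpn12 was at least 1.42-fold lower than with control miRNA and at least 2.00-fold lower than with transfectant only. With miR-141 it was at -0.30 and -0.80, and the controls differed by -0.50. Of the other 3 probes, ILMN_2759945 was detected with transfectant only alone, and ILMN_1259242 and ILMN_2651197 were below detection in every library. With undetected values at their bound Ptpn12 did not pass the rule.

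**Figure D3:**
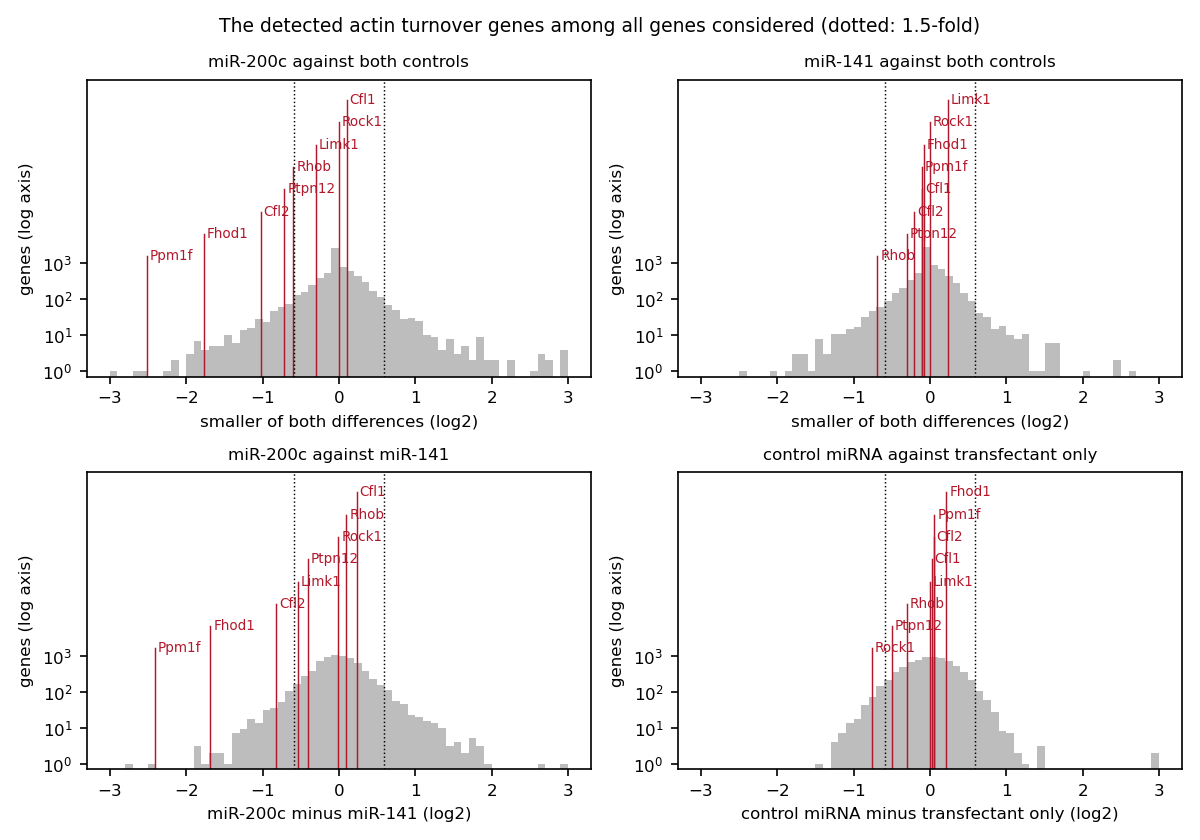
Number of genes (log axis) by the size of their log2 difference in 4 comparisons, with the 8 detected members marked by red lines, whose height only separates the labels, and the 1.5-fold size by dotted lines; values beyond 3 are drawn at 3. In the upper panels the value is the smaller of the differences from both controls, taken as 0 where they point in opposite directions, and Ppm1f (-2.51) and Fhod1 (-1.77) lie in the left tail with miR-200c but near 0 with miR-141.

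Set directly against each other, the miRNA libraries differed by at least 1.5-fold for 3 of the 8 members, all lower with miR-200c. Of all 7285 genes considered, 4.01% were lower and 4.53% higher (8.54% in either direction). With undetected values at their bound 2 members passed, Ppm1f and Fhod1, where 7.34% of 7285 genes passed in either direction. Ppm1f with miR-200c stood 5.31-fold below its miR-141 value, the second lowest of 7285 genes, and Fhod1 3.22-fold below, the seventh lowest. Cfl2 was at -0.82, or at least 1.06-fold lower because of its miR-200c value below detection. Rhob was at 0.094 and Cfl1 at 0.23. Between control miRNA and transfectant only, 1 of 8 members was lower by 1.5-fold, namely Rock1 by its brighter probe, where 4.51% of 7509 genes were lower and 3.16% higher (7.67% in either direction). Those shares show how often libraries without either miRNA differed by this size.

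The other regulators of actin turnover on the array were described through 7 lists, which hold 131 genes in all, 118 of them on the array and 86 detected in at least 1 library. With miR-200c 3 of the 82 genes considered were higher and 3 lower, and with miR-141 0 of 83 were higher and 1 lower. The shares with miR-200c, 3.66% each way, were near those of all genes, 4.07% higher and 4.55% lower. With miR-141 1.20% were lower, where 3.14% of all genes were. At counts this small no difference from all genes is read. The detected list genes had a median difference with miR-200c of -0.0076 against control miRNA and -0.078 against transfectant only, close to the medians of all genes given above.

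In the cofilin cycle 13 of 18 genes were detected, and 1 of 12 considered was higher and 0 lower with miR-200c. The higher one was Pdxp, which encodes chronophin, a phosphatase that switches cofilin on. Its raw signals were 289 with miR-200c and 134 with miR-141, against 117 with control miRNA and 249 with transfectant only. It was 1.98-fold higher with miR-200c than with control miRNA, 1.65-fold higher than with transfectant only and 2.44-fold higher than with miR-141. With miR-141 Pdxp was at -0.30 and -0.56. The cofilin kinase gene Limk2, which did not pass, was at -0.55 and -0.19 with miR-200c.

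Among small GTPases and their regulators, 19 of 23 genes were detected, and with miR-200c 2 of 18 were higher and 2 lower. Rhoj, a GTPase related to Cdc42, had raw signals of 96.6 with miR-200c and 147 with miR-141, against 179 with control miRNA and 346 with transfectant only. With miR-200c it was 3.16-fold lower than with control miRNA and 3.13-fold lower than with transfectant only. With miR-141 it was 1.88-fold and 1.86-fold lower, which made it the 1 gene of these lists called with miR-141. Git2, a scaffold of PIX and PAK proteins, was at -0.78 and -0.75 with miR-200c by its brighter probe, but another detected probe was at 0.44 and 0.53, so its direction is not settled. Ect2, an activator of small GTPases in cell division, was 1.82-fold higher with miR-200c than with transfectant only and at least 1.87-fold higher than with control miRNA, where it was below detection. Rnd1, an atypical small GTPase, was detected with miR-200c alone, with bounds of at least 1.06-fold and 1.09-fold.

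Of the genes for ROCK effectors and myosin II, 10 of 11 were detected and 0 of 10 considered were called with either miRNA. A second probe of the myosin kinase gene Mylk, ILMN_2662602, passed as lower with miR-200c at -0.78 and -0.72, while the probe used was at -0.50 and -1.02. A further Mylk probe, ILMN_1219471, was at -0.37 and -1.06 and did not pass. The myosin heavy chain gene Myh9 was at -0.14 and -0.24 with miR-200c and at -0.23 and -0.33 with miR-141. Of the formins and the branched nucleation machinery 16 of 21 were detected, and 0 of 15 were called with either miRNA. The formin gene Diaph3 was at 0.05 and 0.08 with miR-200c. Among monomer binding, capping and severing genes 12 of 17 were detected, and 1 of 11 was lower and 0 higher with miR-200c. This was Pfn2, a profilin that feeds actin monomers to formins, with raw signals of 687 with miR-200c and 1034 with miR-141, against 878 with control miRNA and 1982 with transfectant only. With miR-200c, Pfn2 was 1.89-fold lower than with control miRNA and 2.13-fold lower than with transfectant only, and it was at -0.34 and -0.52 with miR-141. Capzb, a subunit of the filament capping protein, was at 0.16 and 0.17 with miR-200c by the probe used, but at -1.72 and -2.22 by ILMN_1230100, which was detected in both controls only and passed as lower with both miRNAs. Tmod3, which caps the other filament end, was at -0.40 and -0.54 by the probe used and at -0.59 and -0.95 by ILMN_2479359, which passed as lower with miR-200c.

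The phosphatases related to Ppm1f and its kinase substrates had 10 of 16 genes detected, and 0 of 10 were called with either miRNA. Ppm1a, of the same phosphatase family, was at 0.28 and 0.06 with miR-200c. The calmodulin-dependent kinase gene Camk2d was at 0.06 and -0.38 with miR-200c by the probe used. Its probe ILMN_1238621, detected in both controls only, passed as lower at -1.02 and -1.61 with miR-200c and at -0.79 and -1.38 with miR-141. The other detected Camk2d probes passed with neither miRNA. With miR-200c ILMN_2418116 was at 0.05 and -0.42, ILMN_2491930 at -0.53 and -0.24, and ILMN_2493625 at -0.09 and -0.18. Of the PTP-PEST family and its substrates 6 of 12 were detected, and 0 of 6 were called with either miRNA. The PTP-PEST substrate gene Bcar1 was at 0.16 and 0.13 with miR-200c. Crk, an adaptor that binds Bcar1, was at 0.70 and 0.30 by the probe used, but ILMN_1221405, detected with both miRNAs only, passed as higher at 1.05 and 0.70 with miR-200c and at 1.01 and 0.66 with miR-141. In all, 42 further probes of 32 list genes were detected, of which 40 were considered. With miR-200c 4 of these passed as lower and 1 as higher, and with miR-141 2 as lower and 1 as higher, in each case for a gene not called by its brightest probe. For these genes the call rests on the choice of probe. The differences of the passing Capzb, Camk2d and Crk probes also use values below detection, given as fitted and not as bounds. The share of calls over all further probes of the array was not computed, so these counts describe the list genes alone.

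**Figure D4:**
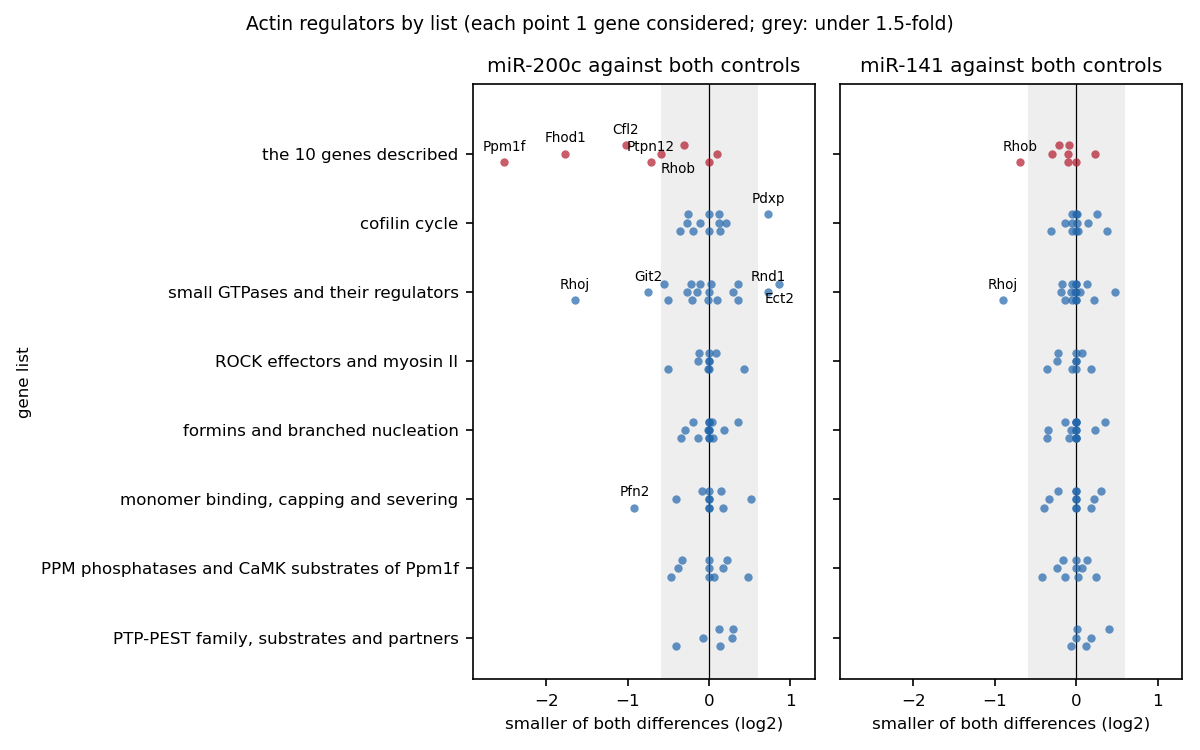
Each point is 1 gene considered, placed by the smaller of its log2 differences from both controls with miR-200c (left) and miR-141 (right), in the members (red) and in each of the 7 lists (blue); a gene with differences in opposite directions is drawn at 0, the grey band spans 1.5-fold and genes outside it are named. Outside the members, 6 genes pass with miR-200c and 1, Rhoj, with miR-141.

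To find transcripts with a like pattern, the 4 normalized values of each gene were centred on their mean and compared by Euclidean distance over the 4 libraries, among 7733 other detected genes. The closest to Ppm1f were Crtap, part of a collagen-modifying complex, at a distance of 0.29, the VEGF receptor gene Flt1 at 0.49, the vesicle coat gene Sec23a at 0.55, the glutamate receptor gene Gria1 at 0.58 and Fhod1 itself at 0.61. The closest to Fhod1 were Sec23a at 0.14, Gria1 at 0.25, Colgalt1, a collagen galactosyltransferase, at 0.26, Mprip at 0.34 and Gamt, an enzyme of creatine synthesis, at 0.43. With miR-200c Sec23a was at -2.00 and -1.78 by the probe used, but at -0.62 and -1.01 by another probe detected in 1 library. The further detected probes of Gria1 were at -1.67 and -1.82 and at -1.64 and -1.68 with miR-200c. Mprip encodes a protein that ties myosin phosphatase to actin. Its raw signals were 322 with miR-200c and 898 with miR-141, against 608 with control miRNA and 1166 with transfectant only, so the miR-200c library was the low one. Mprip was at -1.54 and -1.46 with miR-200c and at 0.0080 and 0.092 with miR-141, and its second detected probe was at -1.34 and -1.37 with miR-200c. The closest to Rhob were Olfml2b at 0.06, Apoc1 at 0.07, and Pcdhb22, Abhd4 and Il11ra2 at 0.09 each. Apoc1 and Pcdhb22 were detected in the 2 control libraries only, so their miRNA values were below detection. Another Apoc1 probe, detected in 1 library, was at 0.34 and -0.54 with miR-200c and at -0.13 and -1.01 with miR-141. These distances rest on 4 libraries and are descriptions.

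**Figure D5:**
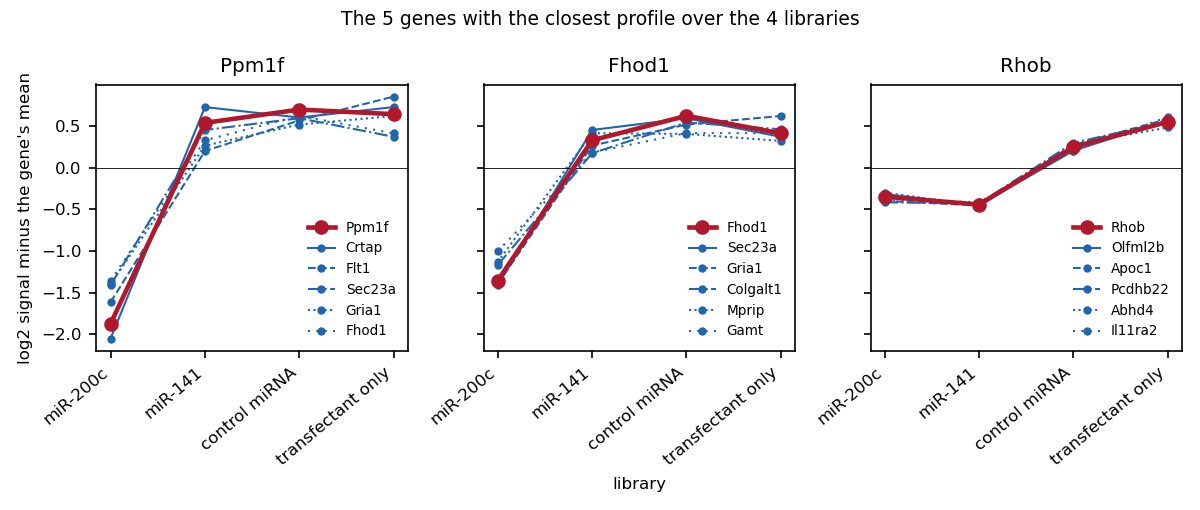
Normalized log2 signal minus the gene's own mean in the 4 libraries, for Ppm1f, Fhod1 and Rhob (red) and the 5 genes closest to each (blue). The Ppm1f and Fhod1 profiles have a single low library, miR-200c, while the Rhob profile is low in both miRNA libraries and highest with transfectant only.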

How the data were processed

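The deposited non-normalized table gave for every probe and array the mean signal intensity of its beads, with no scaling between arrays, per the file headers, and beside it a detection p-value against the background of each array. GenomeStudio is named in the submitters' processing notes; its version and settings are not given in the sources used here. In a second deposited table, the authors' processed intensity values were a straight line of each array's raw signals to within 0.0113 units, and the reason for these lines is not given in the sources used here. Their slopes were 0.971 for miR-200c, 1.00 for miR-141, 1.51 for control miRNA and 0.692 for transfectant only, and the medians of their columns were 45.8, 45.0, 44.7 and 46.3.

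The function neqc (limma 3.58.1, R 4.3.3) corrected the background by normexp, using the detection p-values, added an offset of 16, quantile-normalized all 4 arrays together and took log2. Quantile normalization removes any shift shared by most genes, and the offset shrinks differences of dim probes. Calls and distances were computed in Python 3.11.15 with pandas 2.3.3 and numpy 2.4.6. The steps were tested on simulated data, with changes planted only in bright probes detected in all 4 libraries and a noise set beforehand. It held no planted change in dim probes such as those of Cfl2 and Ptpn12, and its noise was not taken from these arrays.

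Probes were named from the platform annotation: 29976 had 1 gene symbol, 10 several and 16646 none. Through Entrez identifiers 29921 were found in RefSeq of GRCm38.p6 and 0 were renamed. A gene was represented by its brightest probe on average. A value below detection was raised to the lowest detected signal of its array to give a bound. Precision is limited by having 4 arrays.

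The members and lists were chosen with earlier results of these data known. Named were all members with every probe, up to 4 genes per list and miRNA that passed the rule, and the 5 closest profiles to Ppm1f, Fhod1 and Rhob. List genes that did not pass (Limk2, Myh9, Diaph3, Ppm1a, Bcar1), and those whose other probe passed (Mylk, Capzb, Tmod3, Camk2d, Crk), were added after their values were seen. Background correction, scaling, offset, detection threshold, choice of probe and size of call were varied.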

Additional observations from a re-analysis of the deposited data

How the results depend on the processing

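Ppm1f and Fhod1 were called lower with miR-200c, against both controls and against miR-141, under every alternative run, including undetected values at their bound, which was added after seeing the data. The other calls moved. The number of members called with miR-200c, 5, was 2 without background correction, with the authors' processed values and with an offset of 50. At these settings 5.04%, 4.86% and 5.32% of all genes considered passed, against 8.62% in the main run. The number was 3 with detection in all 4 libraries, at the 2-fold size or with undetected values at their bound. There 6.86%, 2.71% and 7.46% of all genes considered passed. With miR-141 the single call, Rhob, was lost (0 called) without background correction, with the authors' values and at the 2-fold size. In that order 2.75%, 2.67% and 1.46% of all genes considered passed with miR-141. With median scaling Rhob was at -0.58 with miR-200c and did not pass. Between the controls, the single call of Rock1 became 2 with an offset of 4 and 0 with the mean over detected probes or the 2-fold size. In that order 12.7%, 7.13% and 0.533% of all genes considered passed between the controls. Limk1 reached -0.59 between the miRNAs with an offset of 4. The cause of these changes was not tested.

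Over all genes, 621 passed with miR-200c, 396 with miR-141, 622 between the miRNAs and 576 between the controls. In that order the counts were 363, 198, 297 and 128 without background correction, 350, 192, 312 and 172 with the authors' values, 383, 217, 322 and 152 with an offset of 50, and 195, 105, 135 and 40 at the 2-fold size. Between the controls 951 passed with an offset of 4 and 337 with detection in all 4 libraries. There the higher share was 41.1%, but 83.0% with median scaling and 63.4% with the authors' values; median scaling also put the median gene 0.10 higher in control miRNA, so no overall direction is read from that comparison. Over 5 other settings of background, scaling and offset, the 11 calls of single member probes gave 55 recomputed values, of which 36 kept the call, 19 lost it and 0 reversed. Of 165 recomputed values of member probes not called, 2 gained a call. No paired analysis was possible because each group has 1 library.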
